A study of Mus musculus with 6 samples.

Results

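The heat shock genes described here are 10 of the 25755 genes in the deposited table, taken by their symbols. They comprise 4 small heat shock proteins (Hspb1, Hspb6, Hspb8 and Cryab), the stress-inducible Hspa1a and Hspa1b, the constitutive Hspa8, and the partner or regulatory genes Hsph1, Dnajb1 and Bag3. Bulk RNA of the optic nerve was sequenced from 3 mice after sham surgery, an incision without crush (mice 1 to 3), and from 3 mice after bilateral optic nerve crush (ON-CR, mice 4 to 6). All 6 carried the genotype NF1flox/flox;hGFAP-Cre, in which Cre recombinase under the human GFAP promoter removes Nf1 from neuroglial progenitors and hence from their progeny, so both groups lacked Nf1 where Cre had acted and no Nf1-intact mice were compared. Surgery was done at 6 weeks of age and the nerves were taken at 12 weeks, which the labels give as 3 months. The nerve was pressed with forceps behind the eye, and this combination of Nf1 loss and injury serves as a model of optic glioma. The genes were selected on their normalized counts in these same sham and ON-CR mice, so their group differences are given as a description.

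Heat shock proteins are molecular chaperones that keep other proteins folded. Small heat shock proteins bind unfolding proteins without using ATP and hold them until an HSP70 machine takes over, and in glia they also bind intermediate filaments such as those of GFAP and vimentin. HSP70 proteins fold their clients in cycles of ATP hydrolysis that HSP40 proteins such as DNAJB1 start and nucleotide exchange factors such as HSPH1 and BAG3 reset. The transcription factor HSF1 drives the inducible genes of this system within minutes of heat or protein damage by binding inverted repeats of the bases GAA in their promoters, whereas Hspa8 is made at all times.

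Libraries held 17414044 to 23621004 estimated reads, and the ON-CR libraries were all shallower than the sham libraries. Values are gene counts that the authors median-normalized, and 3 reads correspond to a value of 2.66 to 3.18. The optic nerve markers Gfap, Aqp4 and Mbp were abundant in all 6 libraries, with a lowest value of 15386 for Aqp4, and the microglial genes Cx3cr1 and Csf1r were present in each. Normalized counts of Nf1, which is deleted in only some cells and in both groups, lay between 342.8 and 447 and overlapped between the groups. Sex-linked transcripts separated the groups: Xist was at 2.14 to 30.9 in sham mice but at 2708, 6357 and 6131 after ON-CR, and the Y-linked Ddx3y at 1291 to 1645 in sham mice but at 976, 4.19 and 0 after ON-CR. The library labelled ON-CR mouse 4 thus held both. The paper pooled mice within a sample for its quantitative PCR. Whether mice were also pooled for sequencing is not stated, and each library is counted here as the mouse named in its label. Surgery and sex cannot be told apart for any gene described here. Without ON-CR mouse 4 the log2 fold changes of Hspb1, Hspb6 and Cryab given below were -1.87, 1.22 and -0.57. Leaving that mouse out does not separate surgery from sex, because the remaining ON-CR mice have Ddx3y at only 4.19 and 0. Fewer cells of a type and less RNA per cell cannot be told apart in these bulk samples.

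Divided by the merged exon length of each gene, the levels spread over more than 3 orders of magnitude. In sham mice Cryab stood at 7534 ± 769 and Hspa8 at 7015 ± 387 normalized counts per kilobase (SD, n = 3 each), and the ranges of the pair overlapped. Next came Hspb8 at 696 ± 42.8 and Bag3 at 503 ± 16.8, followed by Hspb1 at 399 ± 120, Hspb6 at 264 ± 53.9 and Dnajb1 at 227 ± 35.6 normalized counts per kilobase. The ranges of Bag3 and Hspb1, of Hspb1 and Hspb6, and of Hspb6 and Dnajb1 overlapped. Hsph1 was at 146 ± 13.2, Hspa1a at 66.1 ± 21.9 and Hspa1b at 5.12 ± 4.26 normalized counts per kilobase, each without overlap with its neighbours. After ON-CR the order differed mainly for the small heat shock genes: Hspb6 moved from the sixth place to the fourth, at 609 ± 55.9, and Hspb1 from the fifth place to the eighth, at 117 ± 24.3 normalized counts per kilobase. Hspa8 then stood above Cryab, at 6593 ± 175 against 5537 ± 995, although their ranges overlapped. In ON-CR mice the ranges also overlapped for Hspb8 and Hspb6, for Dnajb1 and Hsph1, and for Hsph1 and Hspb1.

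**Figure D1:**
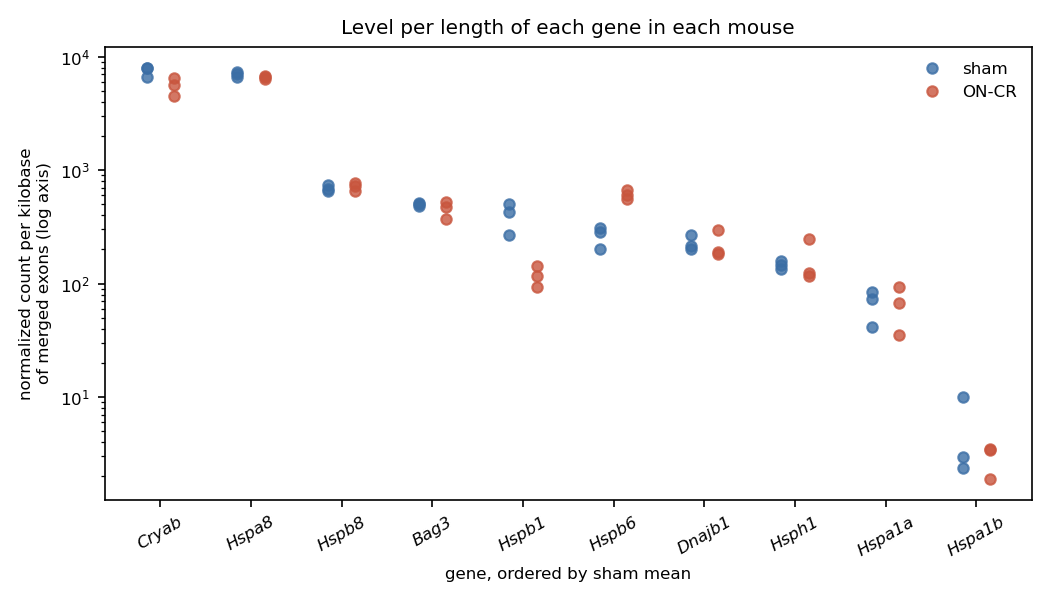
Normalized count per kilobase of merged exons (log axis) of the 10 genes in each mouse, ordered by the sham mean; blue points are the 3 sham mice and red points the 3 ON-CR mice. Hspb1 (lower) and Hspb6 (higher) are the genes that change place most in this order, with means of 117 against 399 and of 609 against 264.

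Among the small heat shock genes, Hspb1 was lower and Hspb6 higher in every ON-CR mouse than in any sham mouse. Hspb1 (ENSMUSG00000004951.10, chromosome 5 of GRCm38 from 135887919 to 135889563, plus strand) encodes HSP25, the mouse form of HSP27, which holds unfolding proteins and binds actin and intermediate filaments. Its normalized counts were 276, 518 and 440 in sham mice 1, 2 and 3 against 146, 96.3 and 121 in ON-CR mice 4, 5 and 6. The groups did not overlap, with sham mouse 1 the lowest of its group and still nearly double ON-CR mouse 4. The means were 411 ± 124 and 121 ± 25.1 (SD, n = 3 each), so that the sham mean was 3.40 times that of ON-CR, and the log2 fold change on the log2(value + 1) scale was -1.73 (standard error 0.25). A processed copy of this gene, Hsp25-ps1, has a row of its own and could share reads with it. The copy stood at 38.9, 87.2 and 69.2 in sham mice against 11.9, 18.0 and 15.1 after ON-CR. With both added, the values were 315, 605 and 509 in sham mice against 158, 114 and 136 after ON-CR, a log2 difference of -1.76, so the direction did not depend on how the reads were divided between them.

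Hspb6 (ENSMUSG00000036854.14, chromosome 7 from 30552178 to 30555443, plus strand) encodes HSP20, a small heat shock protein known best from heart and smooth muscle and also made by astrocytes. Its normalized counts were 651, 704 and 468 in sham mice 1, 2 and 3, against 1399, 1271 and 1528 in ON-CR mice 4, 5 and 6. All ON-CR values lay above all sham values, and the lowest ON-CR value was close to double the highest sham value. The mean went from 607 ± 124 to 1399 ± 129 (SD, n = 3 each), 2.30 times the sham mean, with a log2 fold change of 1.22 (standard error 0.16). Annotated exons of Hspb6 share 122 bases with Proser3 and 3 bases with Lin37 on the other strand. Proser3 was at 39.1 to 57.7 and Lin37 at 357 to 462 over all 6 mice, both with overlapping groups. Within each library, Hspb6 exceeded Hspb1 in normalized counts by a factor of 2.36, 1.36 and 1.06 in sham mice against 9.55, 13.2 and 12.7 after ON-CR. Per kilobase this ratio was 0.714 ± 0.304 with sham surgery and 5.29 ± 0.881 after ON-CR (SD, n = 3 each). It was above 1 in all 3 ON-CR mice and, at 1.06, in sham mouse 1, and below 1 in sham mice 2 and 3.

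The promoter windows of these small heat shock genes, which differed in opposite directions, are shown with those of the inducible Hspa1a and Hsph1, since HSF1 is known to act through such windows. Each runs from 250 bases before to 50 bases after a RefSeq start on GRCm38.p6, in the direction of the gene. Capitals mark the paired units GAANNTTC and TTCNNGAA, each its own reverse complement, and the TATA sequence TATAAA, searched on both strands. The windows are chr5:135887669-135887968 for Hspb1 (plus strand), chr7:30553051-30553350 for the downstream start of Hspb6 (plus strand), chr17:34972107-34972406 for Hspa1a (minus strand) and chr5:149636266-149636565 for Hsph1 (minus strand).
Hspb1: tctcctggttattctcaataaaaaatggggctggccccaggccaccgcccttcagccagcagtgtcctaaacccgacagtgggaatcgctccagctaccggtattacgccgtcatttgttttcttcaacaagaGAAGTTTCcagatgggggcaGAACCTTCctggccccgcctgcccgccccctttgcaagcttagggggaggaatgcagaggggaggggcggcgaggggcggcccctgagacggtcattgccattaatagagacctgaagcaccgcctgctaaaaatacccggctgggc
Hspb6: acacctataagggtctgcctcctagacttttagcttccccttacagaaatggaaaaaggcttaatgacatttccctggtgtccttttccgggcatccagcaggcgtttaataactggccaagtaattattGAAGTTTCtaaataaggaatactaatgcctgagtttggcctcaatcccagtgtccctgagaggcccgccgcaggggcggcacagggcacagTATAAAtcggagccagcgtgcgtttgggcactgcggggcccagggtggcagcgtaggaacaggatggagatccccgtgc
Hspa1a: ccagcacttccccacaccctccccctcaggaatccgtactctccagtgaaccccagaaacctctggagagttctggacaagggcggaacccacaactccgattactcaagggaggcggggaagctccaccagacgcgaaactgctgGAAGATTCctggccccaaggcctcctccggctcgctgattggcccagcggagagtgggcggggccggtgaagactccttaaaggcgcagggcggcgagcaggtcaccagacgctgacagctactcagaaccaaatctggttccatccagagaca
Hsph1: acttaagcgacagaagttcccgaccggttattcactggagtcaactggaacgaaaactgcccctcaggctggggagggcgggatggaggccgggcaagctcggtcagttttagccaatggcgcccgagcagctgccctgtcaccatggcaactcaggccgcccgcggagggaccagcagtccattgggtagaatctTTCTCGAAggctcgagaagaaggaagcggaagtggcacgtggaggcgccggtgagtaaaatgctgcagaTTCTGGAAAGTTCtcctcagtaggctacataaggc
Hspb1 holds GAANNTTC at -117 and at -97, counted from the RefSeq start of the window as 1 with no base 0. Hspb6 holds 1 such pair at -120 and TATAAA at -29, while the window of its upstream start holds neither pair. Hspa1a and Hspa1b each hold 1 pair at -104. In the printed window of Hsph1 the pair TTCNNGAA is found at -54 and at 16, and the latter overlaps GAANNTTC at 21. A window was given for 8 of the 10 genes, and 7 of the 8 held at least 1 of the paired units, Dnajb1 being the exception. Of all 32851 RefSeq windows of this length, 15.1% held either pair, 1.96% held at least 2 and 13.6% held TATAAA. Genes that were higher, lower and overlapping between the groups thus all had a paired unit in a window, and such a match of letters is not evidence of binding.

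Cryab (ENSMUSG00000032060.10, chromosome 9 from 50751325 to 50756636, plus strand) encodes alpha B-crystallin, a small heat shock protein of lens, muscle and glia that is abundant in oligodendrocytes. Its normalized counts were 11762, 11838 and 9830 in sham mice against 9546, 6626 and 8396 in ON-CR mice 4, 5 and 6. The groups were separate, but by a small gap between sham mouse 3 and ON-CR mouse 4. The ON-CR mean was 26.5% below the sham mean (8189 ± 1471 against 11143 ± 1138; SD, n = 3), and the log2 fold change was -0.46 (standard error 0.15). Hspb2, a small heat shock gene of muscle, lies head to head with Cryab and shares 252 exonic bases with it on the other strand, and it was at 182, 222 and 196 in sham mice against 174, 139 and 178 after ON-CR. Beside Cryab, all 10 mature oligodendrocyte markers of a list had a log2 fold change below 0, from -1.42 for Mbp to -0.44 for Opalin with a median of -0.84, and 7 of them fell (adjusted p at or under 0.05 by limma). Their summed value was 1293650 to 1848600 in sham mice against 631361 to 748270 after ON-CR. Mbp was the largest part of it, at 814697 to 1296440 and 369255 to 412899. The part of these markers in the lower Cryab was not tested. In the lens, where Cryab is also abundant, Cryaa is the partner gene, and it was at 0 to 11.5 over all 6 libraries.

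Hspb8 (ENSMUSG00000041548.4, chromosome 5 from 116408491 to 116422864, minus strand), the small heat shock protein that works with BAG3 to send damaged proteins to autophagy, differed little between any of the mice. It was at 1450, 1337 and 1287 in sham mice against 1288, 1425 and 1495 after ON-CR, with overlapping groups and a highest value 1.16 times the lowest. Its log2 fold change was 0.05 (standard error 0.11, 95% interval -0.21 to 0.30).

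**Figure D2:**
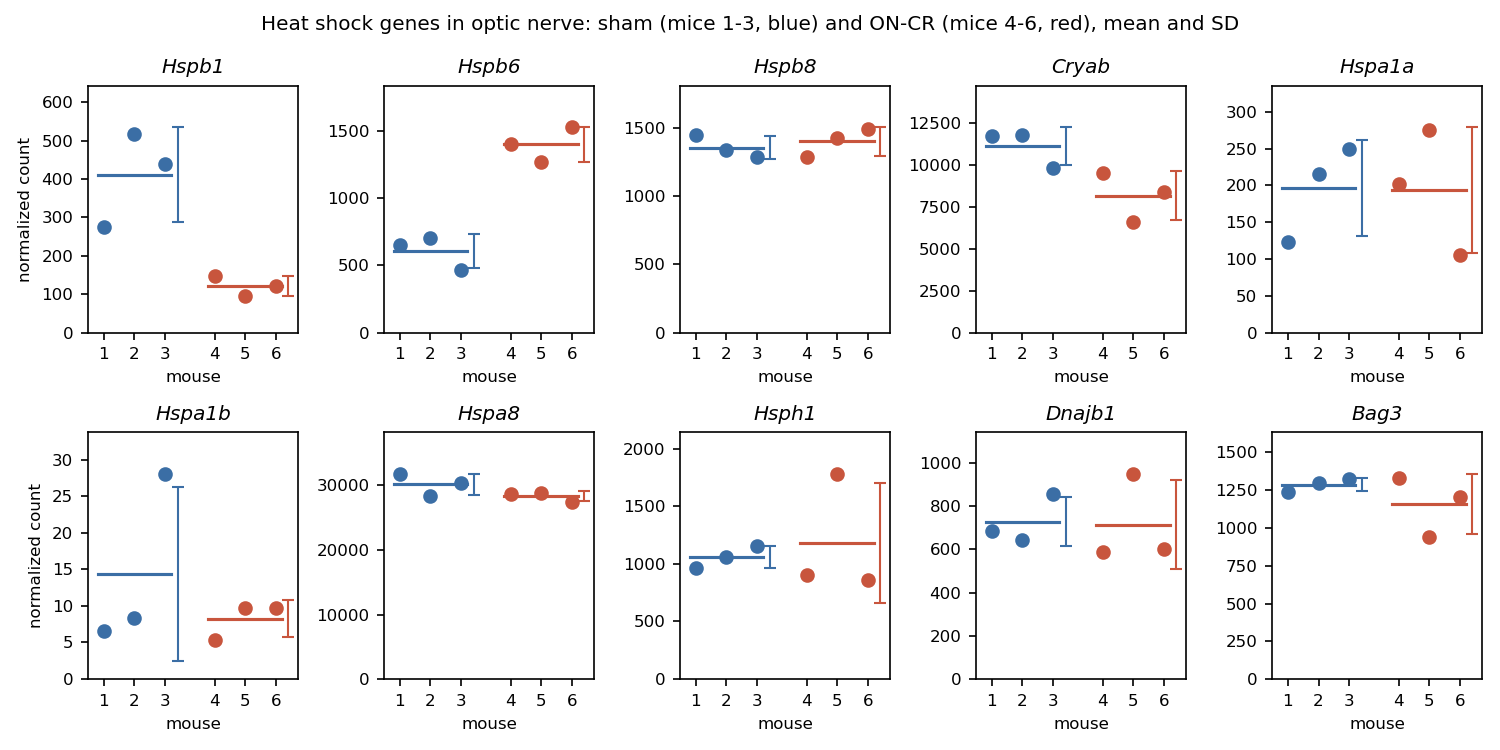
Normalized count of each of the 10 genes in each mouse, on linear axes from 0; horizontal lines are group means and the bars beside them SDs (n = 3). Points of the 2 groups are separate for Hspb1, Hspb6 and Cryab, and in the other 7 panels they overlap, with ON-CR mouse 5 the highest point for Hspa1a, Hsph1 and Dnajb1.

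Of the HSP70 genes, Hspa8 was abundant and even, whereas Hspa1a varied between mice of the same group. Hspa8 (ENSMUSG00000015656.17, chromosome 9 from 40800984 to 40810087, plus strand) encodes HSC70, the constitutive form that also strips clathrin from vesicles. It was at 31738, 28422 and 30360 in sham mice against 28703, 28871 and 27490 after ON-CR. The groups overlapped, with a coefficient of variation of 5.22% over all 6 mice. Its log2 fold change was -0.09 (standard error 0.11, 95% interval -0.34 to 0.16).

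Hspa1a (ENSMUSG00000091971.3, chromosome 17 from 34969190 to 34972156, minus strand) encodes the HSP70 that cells make under stress. Its normalized counts were 124, 216 and 249 in sham mice 1, 2 and 3 against 201, 275 and 105 in ON-CR mice 4, 5 and 6. The highest and the lowest of the 6 values were both from ON-CR mice. The group means were 196 ± 64.9 and 194 ± 85.2 (SD, n = 3 each), and the log2 fold change was -0.06 (standard error 0.36), with a 95% interval from -0.86 to 0.73 that leaves room for a change in either direction. Per kilobase, Hspa8 exceeded Hspa1a in sham mice by a factor of 177, 90.9 and 84.1. In ON-CR mice the factor was 98.3, 72.4 and 180, a range that spans nearly the same values.

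Hspa1b (ENSMUSG00000090877.3, chromosome 17 from 34956436 to 34959238, minus strand) encodes the same kind of protein from a neighbouring gene. It was at 6.63, 8.33 and 28.1 in sham mice against 5.32, 9.72 and 9.67 after ON-CR, or 5.33 to 29.9 estimated reads. Only sham mouse 3 stood above the others, and the log2 fold change of -0.51 (standard error 0.61) became 0.0895 without it. Of the stretches of 50 bases in the Hspa1a transcript, 58.8% also occur in Hspa1b, and 62.3% of those of Hspa1b occur in Hspa1a, so reads could be divided between them in more than one way and the low value of Hspa1b is uncertain. The sum of both genes was 130, 224 and 277 in sham mice against 207, 285 and 115 after ON-CR, which overlapped.

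Hsph1 and Dnajb1, inducible partners of HSP70, were highest in the same mouse as Hspa1a. Hsph1 (ENSMUSG00000029657.15, chromosome 5 from 149614287 to 149636376, minus strand) encodes HSP105, an exchange factor of the HSP110 family. It was at 968, 1059 and 1159 in sham mice against 900.4, 1783 and 856 in ON-CR mice 4, 5 and 6. ON-CR mouse 5 was above every sham mouse and the other ON-CR mice were below every sham mouse. The log2 fold change was 0.07 (standard error 0.24) with all mice and -0.27 without ON-CR mouse 5. Dnajb1 (ENSMUSG00000005483.10, chromosome 8 from 83608193 to 83612653, plus strand) encodes HSP40, which delivers clients to HSP70. Its normalized counts were 686, 643 and 858 in sham mice against 588, 951 and 603 after ON-CR, again with ON-CR mouse 5 highest, sham mouse 3 next and the others close together. Its log2 fold change was -0.05 (standard error 0.20), and -0.28 without ON-CR mouse 5.

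Bag3 (ENSMUSG00000030847.8, chromosome 7 from 128523616 to 128546981, plus strand), the co-chaperone that links HSP70 to small heat shock proteins and to autophagy, is also a target of HSF1. It was at 1239, 1301 and 1322 in sham mice against 1332, 941 and 1208 after ON-CR. Unlike the 3 genes above, it was lowest in ON-CR mouse 5. The groups overlapped, with a log2 fold change of -0.16 (standard error 0.14). Cryab and Hspb1 were also lowest in that mouse. ON-CR mouse 5 had the shallowest library, and the part of depth in these values was not tested.

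**Figure D3:**
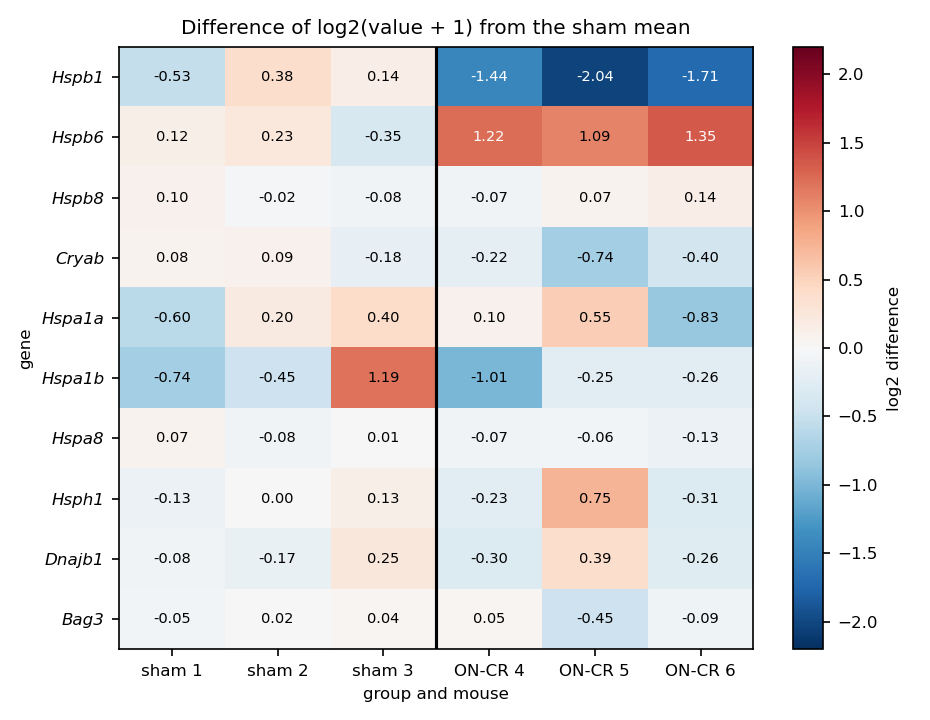
Difference of log2(value + 1) from the sham mean for each of the 10 genes (rows) in each mouse (columns; sham mice left of the line, ON-CR mice right), with red for higher and blue for lower. Hspb1 runs from -2.04 to -1.44 and Hspb6 from 1.09 to 1.35 in the ON-CR mice, while Hsph1 is at 0.75 in ON-CR mouse 5 and at -0.23 and -0.31 in ON-CR mice 4 and 6.

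In the fit of all genes, 1 of the 10 genes was higher (Hspb6) and 1 lower (Hspb1) at an adjusted p at or under 0.05, against 0.971% and 1.13% of the 25755 genes tested, or 2.10% in either direction (250 higher and 290 lower, limma). With libraries rescaled to equal totals this split over all genes was 421 higher and 195 lower. Groups did not overlap for 1 gene that was higher and 2 that were lower (Hspb1 and Cryab), against 10.5% and 11.0% of all genes, or 21.6% in either direction. Nothing is read from these counts, because the genes were chosen by this contrast. Hspb1 was no longer past the threshold without sham mouse 2, sham mouse 3 or ON-CR mouse 6, with log2 fold changes of -1.54, -1.66 and -1.74, and Hspb6 was not without ON-CR mouse 6, with 1.15. The median log2 fold change of the 10 genes was -0.08, beside 0.03 over all genes.

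To place these genes within the chaperone system, 8 further lists of 79 measured genes were examined in the same fit. None of the 79 rose and 1 fell at an adjusted p at or under 0.05 by limma, against 0.971% and 1.13% of all 25755 genes. At an unadjusted p under 0.05 by limma, 1 was higher and 12 were lower. The share of all genes at that unadjusted threshold is not given here, so nothing is read from this split. The median log2 fold change was -0.09, beside 0.03 over all genes. The gene that fell was Fkbp4, an HSP90 co-chaperone and immunophilin, at 2689, 2509 and 2530 in sham mice against 1676, 1587 and 1003 after ON-CR. Its groups were far apart, and the log2 difference was -0.89 (limma standard error 0.18, adjusted p = 0.0339). This p was 0.138, 0.152, 0.109 and 0.0763 without sham mouse 1, 2 or 3 or ON-CR mouse 6, respectively, and 0.0625 with equal library totals, between 0.0189 and 0.152 under all alternatives.

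The abundant chaperones of these lists had small log2 fold changes, and none of those named here passed the threshold. Hsp90ab1, the constitutive cytosolic HSP90, had a log2 fold change of -0.10 and the inducible Hsp90aa1 of 0.15 (adjusted p = 0.739 and 0.559 by limma). In the HSP70 and HSP110 list of 11 genes, Hspa5, the chaperone of the endoplasmic reticulum, was at -0.15 and Hspa9, that of mitochondria, at -0.09 on the log2 scale (adjusted p = 0.519 and 0.763 by limma). Among 16 other HSP40 genes the median was -0.13, and the most abundant, Dnaja1 and Dnajc3, were at -0.14 and -0.21. Among 10 chaperonin genes the median was 0.01, with Hspe1, the mitochondrial HSP10, highest at 0.35 (adjusted p = 0.164 by limma), and Cct5 and Cct7, subunits of the cytosolic chaperonin, were at 0.03 and -0.18. The 7 other exchange factors had a median of 0.01, with Sil1 and Hspbp1 at -0.07 and 0.01. Of the 8 genes that act with BAG3 in selective autophagy, Map1lc3b and Lamp2 were at -0.39 and 0.02 (adjusted p = 0.143 and 0.967 in limma), and the median was -0.01. At an unadjusted p under 0.05 by limma, 3 of the 8 were lower (Map1lc3b, Nbr1 and Wipi1) and none higher. Map1lc3b and Nbr1 lay lower without overlap, against 11.0% of all genes. None of the 8 passed the threshold. The share of all genes at the unadjusted threshold is not given here. Nothing is therefore read from these counts, or from the unadjusted counts of the lists below. Of the other small heat shock genes only 4 were in the table, and apart from Hspb2 they had values of at most 27.0.

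The heat shock factors did not pass the threshold either. Hsf1, the main activator of the inducible genes, was at 541, 606 and 610 in sham mice against 475, 502 and 430 after ON-CR, without overlap. The difference of -0.32 on the log2 scale (limma standard error 0.13, adjusted p = 0.267) did not pass. Hsbp1, a small protein that binds HSF1 trimers, was at -0.12 on the log2 scale. The list of 6 factors and regulators had a median of -0.25, with none past the threshold and 2 lower at an unadjusted p under 0.05.

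**Figure D4:**
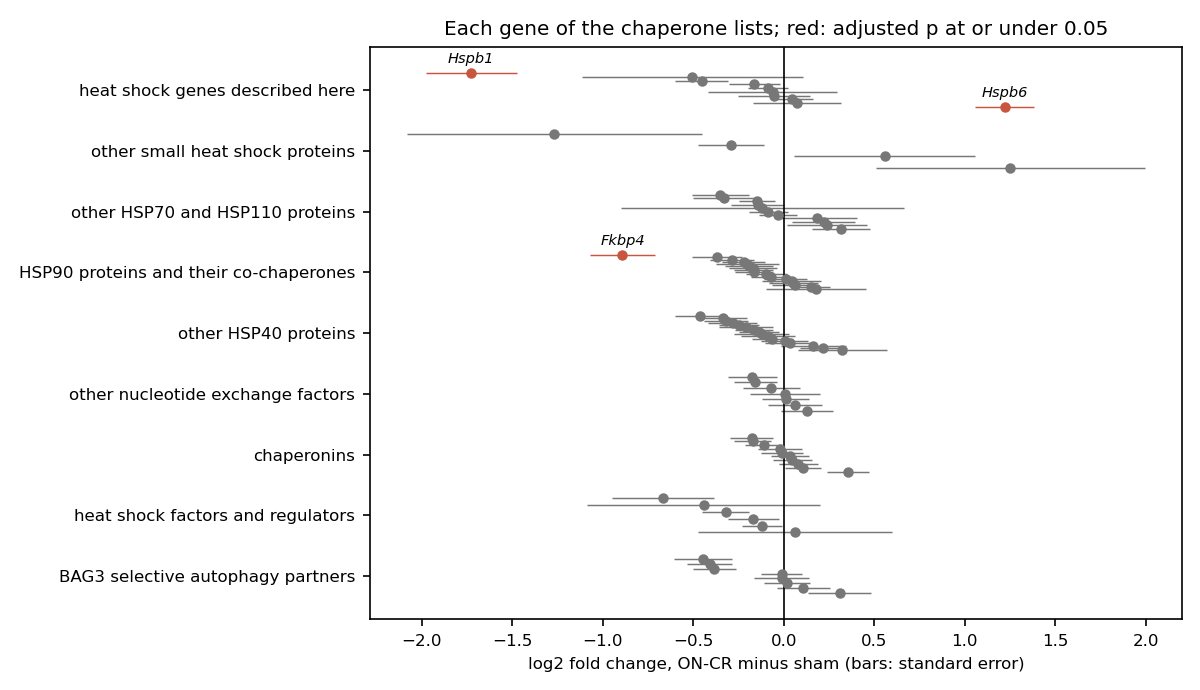
Log2 fold change of ON-CR against sham (bars, standard error) for the 10 heat shock genes and the 79 genes of 8 further chaperone lists, 1 point a gene; red marks an adjusted p at or under 0.05 by limma. Hspb1, Hspb6 and Fkbp4 are the red points, at -1.73, 1.22 and -0.89, and most other points lie close to 0.

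Some chaperones outside the 10 were highest in ON-CR mouse 5 as well, and these were chosen after their values were seen. The HSP110 gene Hspa4l was at 968 to 1062 in sham mice against 1058, 1619 and 1001 in ON-CR mice 4, 5 and 6. Chordc1 and Stip1, which assist HSP90, were at 1178 and 2436 in ON-CR mouse 5, against a highest value of 994 and 2112 in the other mice. Of 81 chaperone genes with a mean value of at least 50, the 10 genes included where they reached it, 24 (29.6%) were highest in ON-CR mouse 5 and as many in sham mouse 1. Over all 14436 genes of that abundance the shares were 17.4% and 19.5%.

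Marker genes of the cell types that make small heat shock proteins are given beside them, and their part in Hspb1, Hspb6 and Cryab was not tested. Of 10 astrocyte genes, Vim rose, from 11380.5 ± 791 to 27569 ± 5174 (SD, n = 3 each; log2 fold change 1.26, adjusted p = 0.003 by limma), and S100b fell, with a log2 fold change of -0.75. Gfap was at 99186 to 123408 in sham mice against 156465 to 202957 after ON-CR (log2 fold change 0.64, adjusted p = 0.0859 by limma). The summed astrocyte list was 234300 to 287647 in sham mice against 316983 to 352808 after ON-CR, and Gfap was the largest part of it. Of the 10 genes, 6 had a log2 fold change above 0 and 4 below 0, the latter including Aldoc at -0.62, Gja1 at -0.30 and Slc1a2 at -0.19, none of which passed the threshold. At an unadjusted p under 0.05, 4 astrocyte genes were higher and 2 lower. Of 10 microglia and macrophage genes, 5 rose and none fell, and their sum was 16350 to 20821 and 22708 to 36521. A log2 fold change above 0 was found for 8 of the 10 and below 0 for 2, P2ry12 at -0.35 and Tmem119 at -0.27. Tmem119 lay lower without overlap, at 1523 to 1745 in sham mice against 1169 to 1487 after ON-CR. Neither of the 2 passed by limma, where 7 genes were higher and none lower at an unadjusted p under 0.05. None of 10 smooth muscle and pericyte genes passed by limma, where none was higher and 2 were lower at an unadjusted p under 0.05, and their sums of 5089 to 6245 and 4911 to 6977 overlapped. The summed skeletal muscle list, of 9 genes, was 118 to 334 in sham mice against 169 to 188 after ON-CR, with Myh4 at 0 in 4 of the 6 libraries, and Myl1 fell (adjusted p = 0.0485 by limma), at 5.31 to 13.8 in sham mice and 0 in each ON-CR library. Tnni2, of the same list, lay the other way without overlap, at 14.9 to 32.9 in sham mice and 41.9 to 75.8 after ON-CR (adjusted p = 0.126 by limma), and 1 gene in each direction had an unadjusted p under 0.05. Among 10 endothelial genes none passed by limma, and 1 was lower at an unadjusted p under 0.05, with sums of 6502 to 7178 and 5891 to 6719. The 6 lens genes summed to 55.0 to 756 and 214 to 293, of which Bfsp2 gave 25.3 to 713, and the 6 retinal genes to 441 to 517 and 392 to 411, of which Rom1 gave 302 to 463, with none past the threshold by limma in either list and 1 retinal gene in each direction at an unadjusted p under 0.05. The 6 red blood cell genes, of which 1 was lower at an unadjusted p under 0.05 and none passed by limma, summed to 269432 to 509355 in sham mice against 137001 to 378054 after ON-CR.

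Immediate early genes, which like inducible heat shock genes answer stress within minutes, are set beside them. Of 10 on the list, 5 rose (Fos, Junb, Egr1, Egr2 and Atf3, adjusted p at or under 0.05 by limma) and none fell. Of the 10, 6 had a log2 fold change above 0 and 4 below 0, Dusp1 at -0.37, Jun at -0.32, Fosb at -0.16 and Ier2 at -0.03. Fos was at 191, 120 and 247.0 in sham mice against 774, 703 and 767 after ON-CR. The Fos groups were separate, whereas Hspa1a, Hsph1 and Dnajb1 overlapped between the same mice. So did the immediate early genes Dusp1, Jun, Fosb, Ier2 and Nr4a1.

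The genes most like 3 of the heat shock genes were sought among 14427 genes with a mean value of at least 50, by the root mean square difference of log2(value + 1) over the 6 mice, each centred on its own mean. Nearest to Hspb1 were Ypel3, Prpsap1 and Gpr15, at 0.126, 0.191 and 0.193. Nearest to Cryab were Fnbp1, Card19 and Vldlr, at 0.0355, 0.0376 and 0.051. Fnbp1 was at 6515, 6926 and 5652 in sham mice against 5447, 3686 and 4570 after ON-CR. Because Fnbp1 was picked for its likeness to Cryab, its lowest value in ON-CR mouse 5 follows from that choice. Nearest to Hspa1a were Col26a1, Gm9925 and Gm12940, at 0.103, 0.169 and 0.181, genes with values of 33.2 to 132 in which a few reads weigh more.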

How the data were processed

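RNA of optic nerves from 6 mice, 3 sham and 3 ON-CR by the sample labels, was sequenced with a SMARTer Ultra Low library kit. The authors aligned reads in Illumina DRAGEN, counted them on mm10 Ensembl genes and median-normalized the counts in Partek Flow (version 10.0 per the labels). The deposited values are this normalized signal per gene, not whole counts, so the study's count test was replaced by limma.

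The test was limma 3.58.1 (R 4.3.3) on log2(value + 1), with a trended prior, Benjamini-Hochberg adjusted p-values over 25755 genes and no filter. Fold changes on this scale understate those of low genes. Estimated reads are values divided by that of 1 read, the most frequent low step of a library. With a tolerance of 0.02 reads, 66.9% to 69.5% of values were whole, so no count model was run. Floors cover counting error only.

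Positions and merged exon lengths are from GENCODE M21 on GRCm38, found for 97.2% of symbols, and promoter windows from RefSeq on GRCm38.p6. Whether the counting used strand is not given in the sources used here.

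The 10 genes and all lists were chosen with earlier results of these data known. The rule for naming took all 10, Nf1, of each chaperone list the genes that passed and the 2 most abundant, of markers those that passed or were listed first, and the 3 genes nearest to Hspb1, Cryab and Hspa1a; of these, names that no result turns on are left out. Alternatives were TMM, upper-quartile and equal-total scaling, pseudocounts of 2 and 0.1, a filter (at least 10 in 3 libraries), robust and quality-weighted fits, and leaving out each mouse.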

Additional observations from a re-analysis of the deposited data

How the results depend on the processing

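The log2 fold change kept its sign under all alternatives run for Hspb6 (above 0) and for Hspb1, Cryab and Bag3 (below 0). The log2 fold change of Hspb6 was between 1.04 and 1.35, that of Hspb1 between -1.99 and -1.54 and that of Cryab between -0.57 and -0.31. That of Bag3 was between -0.27 and -0.021, and neither Cryab nor Bag3 passed the threshold under any alternative. With equal library totals the median of all genes moved by 0.12, and Hspa1a, Hspa8 and Dnajb1 were at 0.0652, 0.0399 and 0.0735, against a median of 0.15, and 421 genes were higher and 0 of the 79 further chaperone genes lower. Quality weights put Hsph1 at -0.051 and gave 388 genes higher. When each mouse was left out, the number of genes ranged from 39 to 489 higher and from 28 to 365 lower (the lowest counts with mouse 6 left out, the highest with mouse 5 left out), the heat shock genes from 0 to 1 in each direction, and the further chaperone genes that fell from 0 to 1. Log2 fold changes then ran from -0.0014 to 0.11 for Hspb8, -0.37 to 0.32 for Hspa1a, -0.88 to 0.0895 for Hspa1b, -0.27 to 0.26 for Hsph1 and -0.28 to 0.0687 for Dnajb1. Fits without a mouse have fewer samples, and the cause of the other changes was not tested. No paired analysis was run, because the labels give no pairing of sham mice with ON-CR mice. Hspa1b, at 5.33 to 29.9 reads, is limited by depth and did not pass the filter on low values.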
